A study of Gallus gallus with 4 samples.

Results

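Cytochrome P450 genes and the other oxidation and conjugation enzymes of the chicken trachea were taken from the count table by symbol. The rule took genes whose symbol starts with CYP, ALDH or ADH and a digit, or with UGT, SULT, FMO, AKR or EPHX, left out CYP51A1, and asked for a mean of 1 CPM or more over the 4 libraries (CPM, reads per 1000000 reads of the library). It found 60 genes of 26296 in the table, out of 84 rows with these letters. One of the 60, FMOD, was taken by its letters only: it encodes fibromodulin, a collagen-binding proteoglycan of cartilage and tendon, and not a flavin monooxygenase. Counts below are given over the 60.

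Enzymes of this kind act in sequence. P450s, flavin monooxygenases and alcohol and aldehyde dehydrogenases oxidise lipophilic compounds, aldo-keto reductases reduce carbonyl groups, epoxide hydrolases open epoxides, and sulfotransferases and glycosyltransferases attach a polar group. The airway lining meets inhaled compounds first, and in mammals its secretory cells are rich in P450s. Many members also have substrates of the body itself, such as retinoids, sterols, vitamin D, fatty acids and the aldehydes formed in amino acid breakdown.

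RNA was sequenced from tracheas of 42-day-old chickens, as 2 libraries from a chamber with added hydrogen sulfide (here exposed libraries 1 and 2) and 2 from a chamber without (control libraries 1 and 2). The gas level was 3.5 to 4.5 mg/kg during weeks 0 to 3, then 19.5 to 20.5 mg/kg during weeks 4 to 6. No strain or sex is given in the labels, and neither is the number of birds behind a library. Each condition was a single chamber, so the gas and any other difference between the chambers cannot be told apart, and p-values measure only the spread between these libraries. Libraries held 16899066 to 22706119 counted reads. Markers of ciliated cells summed to 1702 to 2609 CPM and those of cartilage to 6962 to 35210 CPM, with no matched marker of either list at 0 in all libraries. In a whole trachea, fewer cells of a type and less RNA per cell cannot be told apart.

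No member passed the test of exposed against control tracheas. The quasi-likelihood test of edgeR, adjusted by Benjamini-Hochberg over 16545 tested genes, called 0 of the 60 at an adjusted p under 0.05, and 0.0% of all tested genes. The smallest adjusted p of a member was 0.869. Without adjustment, 2 members had an edgeR p under 0.05 (background 5.58%), both with a higher level after exposure. Of the tested genes, 2.12% had such a p with a higher level and 3.46% with a lower one. They were CYP2H1 and ADH1C. CYP2H1 reached the mean of 1 CPM only through the exposed libraries, since its control mean was 0.561 CPM, so its place among the members rests on the difference itself. DESeq2 also called 0 of the 60, where it called 0.798% of all tested genes.

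Most members had small differences, as did most tested genes. Of the 60, 50 (83.3%) had an absolute log2 fold change under 0.5 (79.5% of tested genes did). Only 2 (3.33%) had one over 1 (background 6.18%). The level was higher after exposure for 42 members and lower for 18, with 51.6% of tested genes higher. The median log2 fold change was 0.15 over the members and 0.011 over all tested genes. Over the 59 without FMOD, 41 were higher and 18 lower, with a median of 0.13. Most markers of 3 kinds of immune cell had a lower level after exposure. Of these markers edgeR called 0, and DESeq2 called 5 of B and plasma cells, 1 of T cells and 3 of macrophages and dendritic cells. Of 13 markers of B and plasma cells 12 were lower after exposure, all 12 without overlap (background 17.2%). The 13 summed to 2627 and 2159 CPM against 12950 and 11170 CPM. IGLL1 (1370 and 1095 against 6670 and 6254 CPM) and IGJ (955 and 760 against 5840 and 4338 CPM) made up most of these sums. The median log2 fold change of the list was -0.90. All 10 T cell markers were lower, 7 of them without overlap, at sums of 181.2 and 169.8 CPM against 227.2 and 310.7 CPM. Of 11 markers of macrophages and dendritic cells 7 were lower, 6 of them without overlap. The 11 summed to 299.3 and 219.3 against 436.2 and 361.8 CPM. No matched marker of these 3 lists was at 0 in all libraries, and their part in the split of the members was not tested. With library totals in place of TMM scaling the split was 34 higher and 26 lower, where 6597 of 16545 tested genes were higher. The medians were then 0.060 over the members and -0.071 over all tested genes. Both control libraries weighed on the median. Without control library 2 it was 0.023, with 32 members higher and 28 lower. Without control library 1 it was 0.29, with 41 higher and 19 lower. The same values over all tested genes are not given for fits with a library left out. Without exposed library 1 the median of the members was 0.076. The groups did not overlap for 14 members with a higher level after exposure (background 15.3%) and for 2 with a lower level (background 17.2%). CYP2H1, a member only through the exposed libraries, is counted in the 14 and in the 42. FMO4, counted in the 18, reached the level only through the controls. Its mean was 0.989 CPM in the exposed libraries and 1.43 CPM in the controls.

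**Figure D1:**
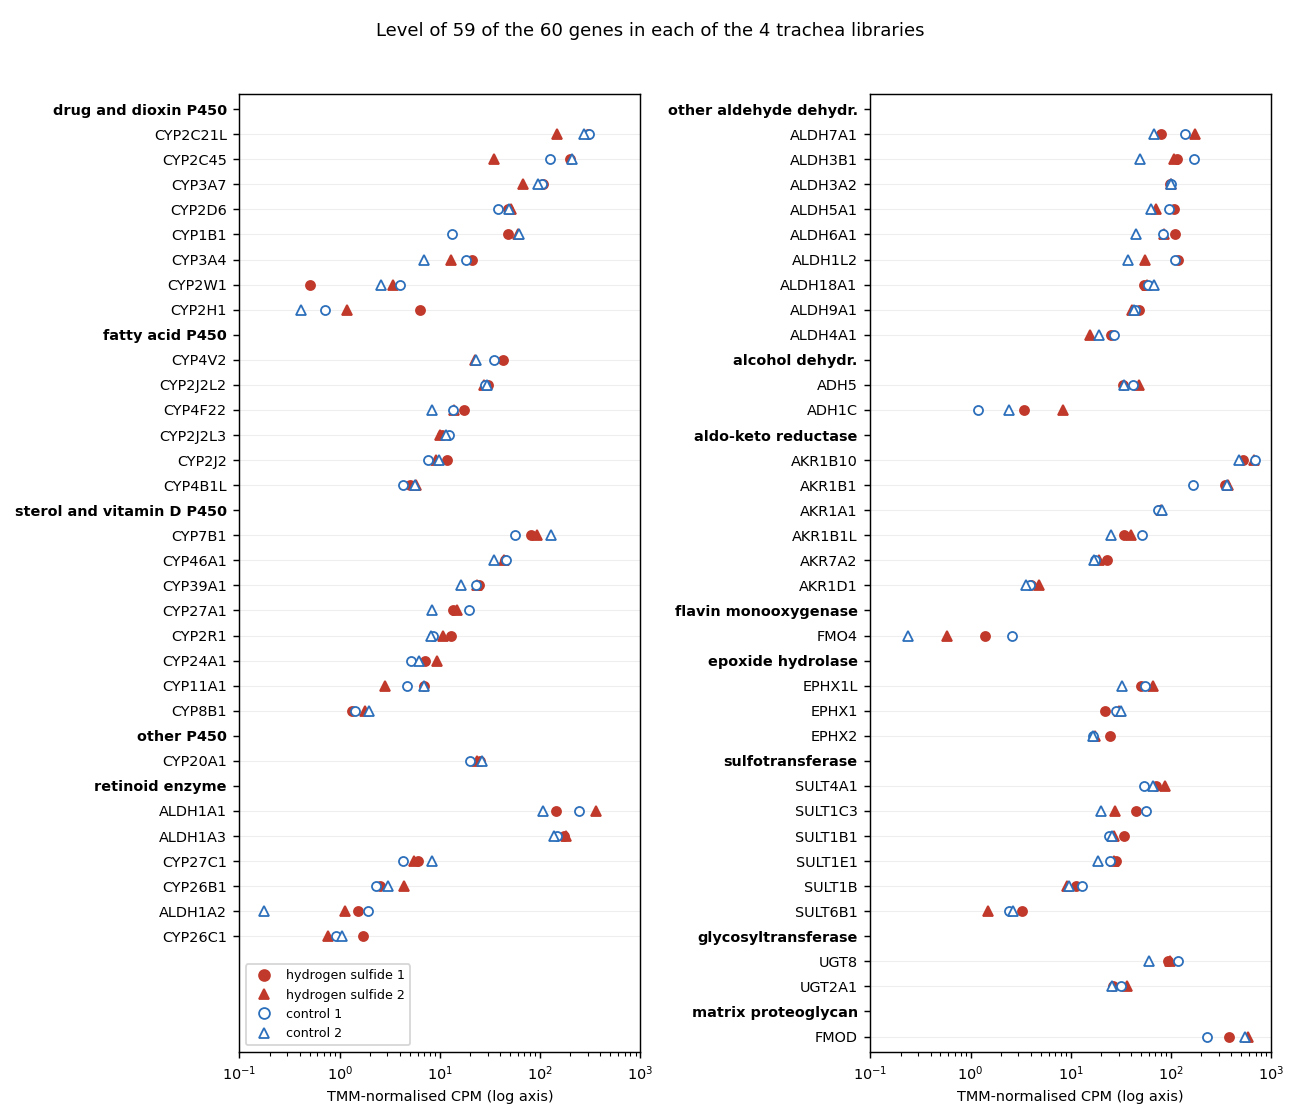
TMM-normalised CPM of 59 of the 60 genes on a log axis, 1 symbol per library (filled red, hydrogen sulfide; open blue, control; circle, replicate 1; triangle, replicate 2), grouped by role. Levels are not scaled to transcript length, so symbols are to be compared within a gene; the red and blue symbols interleave for most genes, and 14 have both red symbols to the right of both blue ones.

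Levels printed above and from here on are TMM-normalised CPM, except for the level of the rule and the means around its limit. The table gives no transcript lengths, so the level of 1 gene is not set against that of another. Of the P450 family, 26 of 45 rows reached the level of the rule, 12 of 13 aldehyde dehydrogenases did, and so did all 6 aldo-keto reductases and all 6 sulfotransferases. Among alcohol dehydrogenases, glycosyltransferases and flavin monooxygenases 2 of 3 rows each did, and 3 of 4 epoxide hydrolases. The summed level of the 26 P450 genes was 1081 and 702 CPM in the exposed libraries and 903 and 1043 CPM in the controls. The 12 aldehyde dehydrogenases summed to 1074 and 1247 CPM against 1220 and 739 CPM, and the 6 aldo-keto reductases to 1001 and 1191 CPM against 1004 and 966 CPM. Each of these sums overlapped between the groups except that of the 6 sulfotransferases, at 193.5 and 179.9 CPM in the exposed libraries and 173.5 and 142.6 CPM in the controls.

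The P450s known for drugs and for dioxin-like compounds were uneven between libraries of a group. Of 8 members, 4 lay higher and 4 lower in the exposed tracheas. Their median log2 fold change was -0.0062, and 0.0021 with the size factors of DESeq2. CYP2H1, a chicken P450 induced by phenobarbital in the liver, stood at 6.30 and 1.18 CPM in the exposed libraries and at 0.709 and 0.413 CPM in the controls. Both exposed libraries lay above both controls, but exposed library 1, with 136 reads against 26, 13 and 7 in the others, set most of the distance. The log2 fold change was 2.71 (SE 0.96; edgeR adjusted p = 0.869, DESeq2 adjusted p = 0.311), and 1.06 without exposed library 1. The reference gene table of GRCg7b names it CYP2C23a, a CYP2C gene, and reads shared with its relatives of that subfamily could have been split or dropped. The summed level of mucous cell markers was also highest in exposed library 1, at 5996 CPM. It was 3972 CPM in exposed library 2 and 1124 and 1918 CPM in the controls. MUC alone gave 5168 CPM of the sum in exposed library 1. Among the tested markers, LOC395381 peaked in exposed library 2 and ST6GALNAC1 in control library 1, and the others in exposed library 1. Of the 9 tested, 8 were higher after exposure, and TFF2 had a single read. The sums of adipose tissue, endothelium and skeletal muscle markers also peaked in exposed library 1, and those of the other cell types did not. Only the adipose tissue sum had the full library order of CYP2H1, which no single marker of that list had. It was 452.4 and 409.9 CPM after exposure and 387.3 and 268.9 CPM without. The part of these cell types in the CYP2H1 difference was not tested.

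CYP2C45, also of the CYP2C subfamily, stood at 199 and 34.9 CPM in the exposed libraries and at 125 and 210 CPM in the controls. Exposed library 2 was far below the other 3 libraries, and the log2 fold change of -0.52 (SE 0.82) became 0.25 without it. CYP2C21L was lowest in the same library, at 304 and 147 CPM against 307 and 278 CPM. CYP3A7, a drug-oxidising P450 that GRCg7b names CYP3A5, was lowest there too, at 107 and 67.9 CPM against 104 and 94.5 CPM. CYP2W1 went the other way and was low in exposed library 1, at 0.510 and 3.39 CPM against 3.98 and 2.60 CPM. None of these 4 genes separated the groups.

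CYP1B1, which oxidises oestrogens and polycyclic aromatic compounds and is a target of the aryl hydrocarbon receptor, stood at 48.1 and 59.7 CPM after exposure and at 13.2 and 62.3 CPM in the controls. Control library 1 alone was low, and the log2 fold change of 0.52 (SE 0.72) became -0.20 without it. The CYP1A and CYP1C rows, of the same family, were below the level of the rule. CYP1A4 had 1 and 11 reads after exposure and 0 and 3 in the controls, CYP1A1 had 1 and 0 against 1 and 3, and CYP1C1 had 11 and 12 against 17 and 14. CYP1A1 and CYP1A4 did not pass the filter on low counts and were not tested. GRCg7b gives both rows the name CYP1A1. CYP1C1 was tested and lay lower after exposure without overlap, with a log2 fold change of -0.73 (SE 0.50; adjusted p = 0.999 by edgeR). CYP2D6 stood at 48.0 and 50.8 CPM against 38.2 and 49.5 CPM, and CYP3A4 at 21.1 and 13.0 against 18.3 and 6.90 CPM, both with overlap.

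None of the P450s of fatty acids and eicosanoids passed the test. In mammals the CYP2J enzymes make epoxides of arachidonic acid and the CYP4 enzymes hydroxylate the end of fatty acid chains. Of 6 members, 5 had a higher level after exposure (4 with library totals), with a range of log2 fold changes from -0.21 to 0.52. CYP2J2L2 stood at 30.5 and 27.7 CPM after exposure and at 28.4 and 29.4 CPM without. CYP4V2, known from a human retinal disease of lipid deposits, stood at 42.5 and 22.4 CPM against 35.0 and 23.1 CPM. Human CYP4F22 acts on very long fatty acids of the skin barrier. The row listed as CYP4F22, which GRCg7b names CYP4F11, stood at 17.6 and 13.9 CPM against 13.5 and 8.38 CPM. Its log2 fold change was 0.52 with an SE of 0.32 (edgeR adjusted p = 0.999). Its groups did not overlap, though exposed library 2 and control library 1 nearly met, and the value was 0.21 without control library 2. EPHX2, the soluble epoxide hydrolase that turns such epoxides into diols, stood at 24.7 and 17.4 CPM against 16.6 and 16.6 CPM. The 3 CYP2J rows that reached the level are near relatives, and reads shared among them could have been split or dropped.

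Members that act on sterols, steroids and vitamin D included both ends of vitamin D metabolism. Of 8, 5 had a higher and 3 a lower level (4 and 4 with library totals). CYP2R1, which adds the first hydroxyl group to vitamin D, stood at 12.9 and 10.8 CPM in the exposed libraries and at 8.56 and 8.20 CPM in the controls (log2 fold change 0.50, SE 0.24; adjusted p = 0.973 by edgeR). CYP24A1, which inactivates the hormone, stood at 7.13 and 9.37 CPM against 5.18 and 6.20 CPM (0.54, SE 0.29, edgeR adjusted p = 0.999). Both exposed libraries lay above both controls for each gene, without passing the test. CYP24A1 had 0.33 without exposed library 2. CYP7B1, the oxysterol 7-alpha-hydroxylase, stood at 80.8 and 94.2 CPM against 56.3 and 130 CPM, with the controls at both extremes. CYP46A1, the cholesterol 24-hydroxylase, stood at 45.2 and 43.4 CPM against 45.8 and 34.9 CPM. CYP39A1, which hydroxylates the product of that enzyme, stood at 24.5 and 23.4 CPM against 22.7 and 16.1 CPM. CYP7A1 and CYP17A1, the first enzyme of bile acid synthesis and a steroid hydroxylase, had at most 7 and 6 reads in any library and were not members. CYP11A1, which starts steroid synthesis, stood at 6.90 and 2.85 CPM against 4.74 and 6.90 CPM, and CYP27A1, the sterol 27-hydroxylase, at 13.6 and 14.7 against 19.5 and 8.32 CPM. CYP8B1 stood under 2 CPM in every library. CYP20A1, a P450 with no settled substrate, stood at 25.3 and 23.6 CPM against 20.1 and 26.4 CPM.

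Of the enzymes of retinoids (ALDH1A1, ALDH1A2, ALDH1A3, CYP26B1, CYP26C1 and CYP27C1), 5 of 6 lay higher in the exposed tracheas, none past the test. Of all tested genes, 51.6% were higher. With a single library left out, a different one for each gene, ALDH1A1 (-0.29), ALDH1A2 (-0.53) and CYP26C1 (-0.36) turned lower. The median log2 fold change of the 6 was 0.33, and 0.011 over all tested genes. ALDH1A3, which oxidises retinal to retinoic acid, was the steadiest of them, at 175 and 181 CPM in the exposed libraries and 147 and 139 CPM in the controls. Replicates differed by little and the groups did not overlap. The log2 fold change was 0.32 (SE 0.15; adjusted p = 0.972 by edgeR), and 0.26 to 0.36 when any single library was left out. ALDH1A2, with the same activity, had 33 and 25 reads against 35 and 3. CYP26B1, which hydroxylates retinoic acid for removal, stood at 2.55 and 4.34 CPM against 2.29 and 3.01 CPM, and CYP26C1 at 1.71 and 0.769 against 0.927 and 1.06 CPM. CYP27C1, a retinoid desaturase in humans, stood at 6.11 and 5.47 CPM against 4.31 and 8.44 CPM.

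ADH1C, a class I alcohol dehydrogenase that acts on ethanol and retinol, stood at 3.38 and 8.37 CPM in the exposed libraries and at 1.20 and 2.42 CPM in the controls. Both exposed libraries lay above both controls, with exposed library 2 farthest, at 185 reads against 73, 22 and 41. The log2 fold change was 1.70 (SE 0.63; edgeR adjusted p = 0.872, DESeq2 adjusted p = 0.523), and 0.90 without exposed library 2. The row listed as ADH5, which GRCg7b names ADH4, stood at 33.2 and 47.7 CPM against 41.6 and 33.9 CPM, with overlap.

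**Figure D2:**
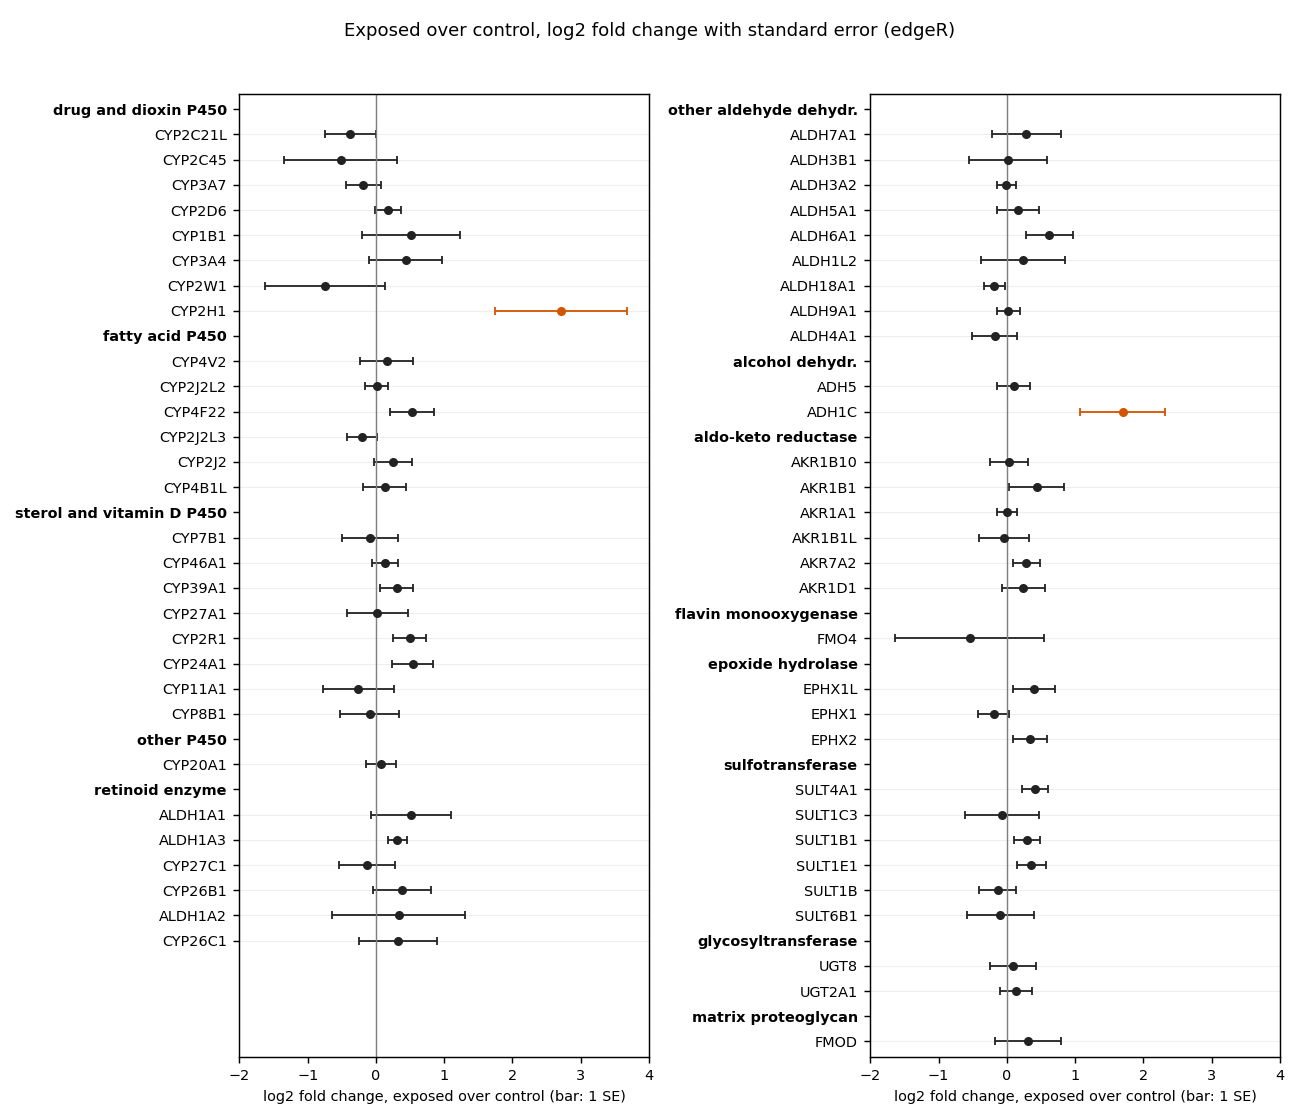
Log2 fold change, exposed over control, of 59 of the 60 genes from the edgeR fit, with bars of 1 standard error; orange marks an unadjusted p under 0.05. CYP2H1 at 2.71 and ADH1C at 1.70 are the 2 orange points, and the bars of the other genes lie for the most part between -1 and 1.

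The 2 members that GRCg7b places on the Z sex chromosome had the library order of the Z genes as a whole. ALDH1A1, another enzyme that makes retinoic acid, stood at 145 and 359 CPM in the exposed libraries and at 246 and 108 CPM in the controls. ALDH7A1, which acts in lysine breakdown, stood at 79.5 and 174 CPM against 139 and 68.5 CPM. Both were high in exposed library 2 and control library 1 and low in the other libraries, so the groups overlapped fully. This order was not particular to them: EPHX1L and UGT2A1, which GRCg7b places on chromosomes 3 and 4, had it too. In the birds' ZW system a male carries 2 Z chromosomes and a female 1, with incomplete dosage compensation. Over 631 tested Z genes, the log2 deviation from each gene's mean had a median of -0.24 and 0.30 after exposure, against 0.29 and -0.29 without. Over 44 W genes, the summed level was 527 and 151 CPM after exposure and 136 and 538 CPM without. Ciliated cell markers also had their highest sums in exposed library 2 and control library 1. The sums were 1702 and 2609 CPM after exposure and 2110 and 1844 CPM without, though TPPP3, DNAH9, CCDC40 and RSPH4A did not share this. DNAH9, a large part of the sums, stood at 568 and 748 CPM against 525 and 556 CPM, lowest in control library 1. The part of the sex chromosomes and that of ciliated cells in the levels of ALDH1A1 and ALDH7A1 were not tested. Within each group the library with the higher Z level had 2.48 times and 2.28 times the ALDH1A1 of the other, in the exposed and the control group respectively. For ALDH7A1 the ratios were 2.19 and 2.03, and the median over the Z genes was 1.48 and 1.49. The log2 fold change of ALDH1A1 was 0.51 (SE 0.59), which became -0.29 without exposed library 2, and that of ALDH7A1 was 0.29 (SE 0.51).

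**Figure D3:**
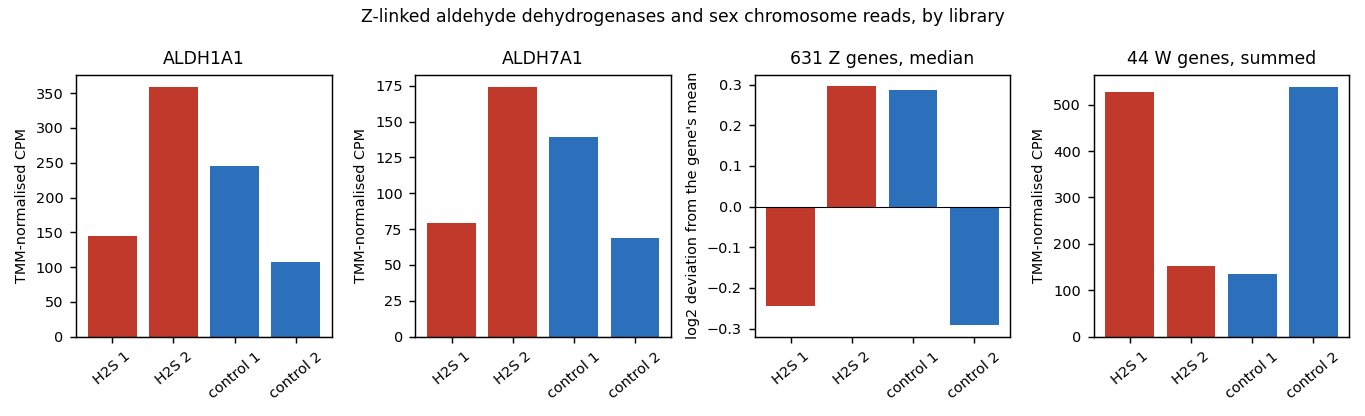
Bars by library (H2S, hydrogen sulfide, red; control, blue) for ALDH1A1 and ALDH7A1 in TMM-normalised CPM, the median log2 deviation of 631 Z genes and the summed CPM of 44 W genes. ALDH1A1 and ALDH7A1 are high in the libraries with high Z and low W levels, exposed library 2 and control library 1.

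The other aldehyde dehydrogenases, most of them mitochondrial enzymes of amino acid or aldehyde breakdown, showed no shared direction. Of these 9 (ALDH7A1 included), 6 had a higher and 3 a lower level, and 4 and 5 with library totals. ALDH6A1, of valine breakdown, stood at 110 and 85.2 CPM in the exposed libraries and at 82.6 and 44.4 CPM in the controls (log2 fold change 0.62, SE 0.34; adjusted p = 0.999 by edgeR). The groups did not overlap, but exposed library 2 and control library 1 differed by little, and the value was 0.23 without control library 2. ALDH3A2, the fatty aldehyde dehydrogenase, was nearly constant at 98.2 and 101 CPM against 101 and 99.4 CPM. ALDH9A1, of carnitine synthesis, was so too, at 47.7 and 40.5 CPM against 43.5 and 43.2 CPM. ALDH5A1, of GABA breakdown, stood at 107 and 70.5 CPM against 94.8 and 63.4 CPM, and ALDH4A1, of proline breakdown, at 25.5 and 15.7 against 27.2 and 19.4 CPM. ALDH18A1, which makes the precursor of proline, was 1 of the 2 members lower without overlap, at 53.7 and 57.7 CPM against 59.4 and 67.1 CPM (log2 fold change -0.18, SE 0.16). The other was CYP2J2L3, at 10.47 and 10.04 CPM against 12.2 and 11.5 CPM.

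Among the aldo-keto reductases, AKR1B10, a reductase of retinal and lipid aldehydes, stood at 519 and 675 CPM in the exposed libraries and at 693 and 474 CPM in the controls. AKR1B1, aldose reductase, stood at 345 and 372 CPM against 165 and 365 CPM. Control library 1 alone was low, so the log2 fold change of 0.44 (SE 0.40) became -0.019 without it. AKR1A1, the aldehyde reductase of glucuronate metabolism, stood at 75.6 and 80.3 CPM against 73.8 and 81.3 CPM. AKR7A2, which in mammals reduces the dialdehyde of aflatoxin, stood at 22.8 and 19.3 CPM against 17.4 and 17.2 CPM, without overlap and without passing (log2 fold change 0.28, SE 0.20). AKR1D1, which in mammals reduces steroids and bile acid precursors, stood at 3.98 and 4.84 CPM against 3.93 and 3.54 CPM, where exposed library 1 and control library 1 nearly met. AKR1B1, AKR1B10 and AKR1B1L are related genes, and reads they share could have been split or dropped.

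FMO4, a flavin monooxygenase, had 30 and 13 reads after exposure and 48 and 4 without. The microsomal epoxide hydrolase EPHX1, which detoxifies epoxides of inhaled aromatic compounds, stood at 22.0 and 30.2 CPM against 28.1 and 31.5 CPM. Its relative EPHX1L stood at 50.3 and 66.0 CPM against 55.2 and 32.8 CPM (log2 fold change 0.40, SE 0.31), with overlap, and had 0.063 without control library 2.

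Of the 6 sulfotransferases, which transfer sulfate from the cofactor PAPS, 3 lay higher in the exposed tracheas and those 3 had no overlap between the groups (background 15.3%). SULT4A1, known from brain, stood at 71.7 and 87.2 CPM in the exposed libraries and at 53.4 and 65.7 CPM in the controls (log2 fold change 0.42, SE 0.19; adjusted p = 0.972 by edgeR). SULT1E1, the oestrogen sulfotransferase, stood at 28.5 and 27.3 CPM against 24.7 and 18.8 CPM. SULT1B1, which acts on phenols and thyroid hormone, stood at 33.8 and 27.1 CPM against 23.9 and 25.7 CPM. SULT1B and SULT6B1 overlapped, at 11.2 and 9.23 CPM against 12.9 and 9.56 CPM and at 3.24 and 1.49 CPM against 2.40 and 2.66 CPM. SULT1C3 was uneven in both groups, at 45.1 and 27.6 CPM against 56.3 and 20.1 CPM. UGT2A1, a glucuronosyltransferase of the olfactory lining in mammals, stood at 26.6 and 36.7 CPM against 31.9 and 25.8 CPM. UGT8, which makes galactosylceramide, stood at 93.0 and 98.0 CPM against 118 and 60.9 CPM. In GRCg7b, UGT2A1, SULT1B, SULT1B1 and SULT1E1 are 4 genes in a row. Their log2 fold changes were 0.13, -0.13, 0.30 and 0.36, so the run of genes had no single direction. SULT1B1 had 0.13 without exposed library 1, SULT1E1 had 0.17 without control library 2, and SULT4A1, elsewhere in the genome, had 0.27 without exposed library 2. SULT1B and SULT1B1 may share reads.

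Part of the members differed between libraries of the same group. The exposed libraries differed over 2-fold for 12 members (20.0%, background 11.4%) and the controls for 15 (25.0%, background 16.3%). Over 4-fold apart in the exposed group were CYP2W1, CYP2C45 and CYP2H1 (background 2.92%). In the control group these were FMO4, ALDH1A2 and CYP1B1 (background 5.04%), with FMO4 and ALDH1A2 at 4 and 3 reads in control library 2. Exposed library 1 was the lowest of the 4 libraries for 6 members (background 18.6%) and exposed library 2 for 12 (background 25.4%). Control library 1 was the lowest for 16 (background 28.5%) and control library 2 for 26 (background 27.6%).

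**Figure D4:**
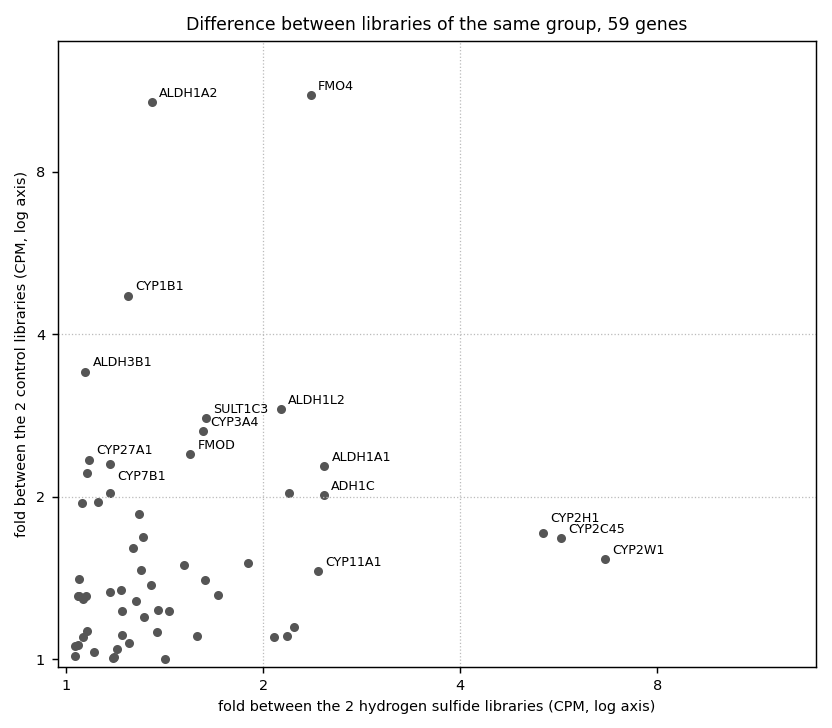
Fold between the hydrogen sulfide libraries (horizontal) and between the control libraries (vertical) for 59 of the 60 genes, higher CPM over lower CPM, both on log axes with dotted lines at 2 and 4. CYP2H1, CYP2C45 and CYP2W1 stand apart on the horizontal axis at 5.36, 5.70 and 6.66, and FMO4 and ALDH1A2 on the vertical axis at 11.1 and 10.8.

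The control libraries differed in both directions. In control library 1, 5 members stood at under 0.5 times the level of control library 2 (background 7.46%): CYP1B1, AKR1B1, CYP7B1, ADH1C and FMOD. FMOD stood at 378 and 585 CPM in the exposed libraries and at 229 and 549 CPM in the controls. The 16 cartilage markers summed to 21190 and 31930 CPM in the exposed libraries and to 6962 and 35210 CPM in the controls, all 16 were detected, and their part in these 5 genes was not tested. In control library 2, 10 members stood at under 0.5 times the level of control library 1 (background 8.83%). Besides ALDH1A1 and ALDH7A1 they included ALDH3B1, at 114 and 107 CPM against 168 and 49.4 CPM. ALDH1L2, the mitochondrial enzyme that oxidises formyl-tetrahydrofolate, stood at 117.5 and 55.3 CPM against 109 and 37.6 CPM. The 14 rows matched to skeletal muscle markers summed to 9402 and 3904 CPM after exposure and to 9097 and 1425 CPM without. ALDH1L2 and CYP3A4 shared the library order of this sum, which not every marker did. ACTA1, MYL1 and ACTN2 were highest in control library 1 and MB in exposed library 2, and PVALB was lowest in exposed library 2. The marker MYLPF was matched by synonym to the row DTNB, which may not be a muscle gene. DTNB stood at 48.1 and 32.4 CPM against 43.8 and 47.0 CPM, in another order. None of the 14 was at 0. The summed endothelium markers had the same library order as the muscle sum, again not shared by every marker. They stood at 1306 and 1096 CPM after exposure and at 1300 and 1032 CPM without. The part of either list in these values was not tested.

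**Figure D5:**
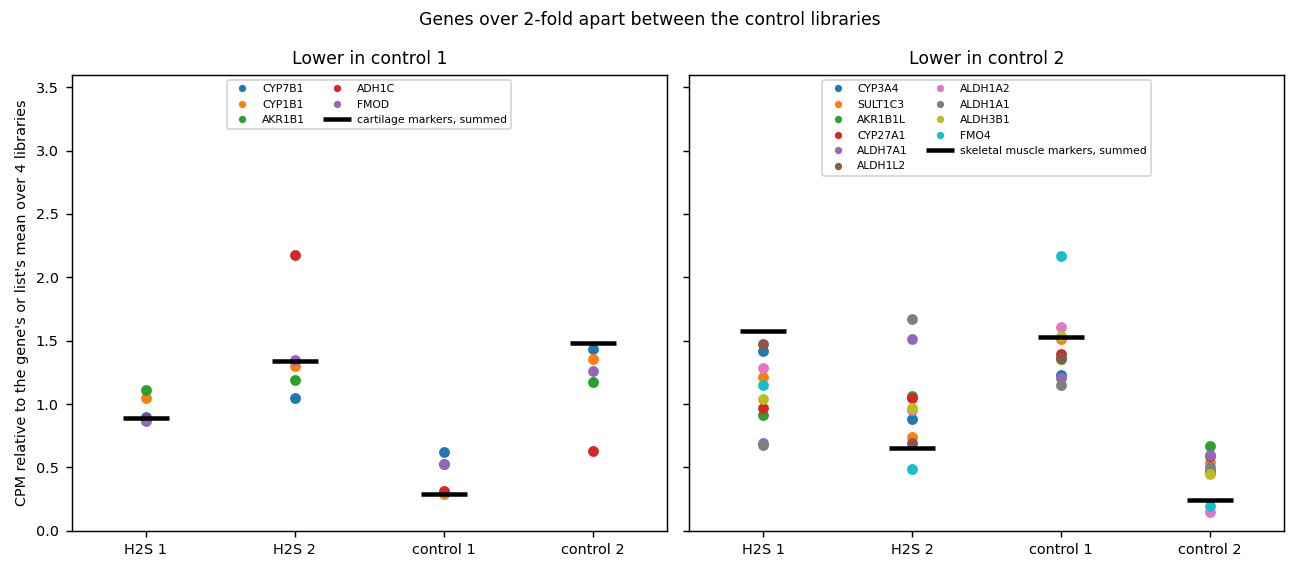
CPM relative to the mean over the 4 libraries for the 5 members lower in control library 1 (left, with the sum of the 16 cartilage markers as a bar) and the 10 lower in control library 2 (right, with the sum of the 14 rows matched to skeletal muscle markers). Left, the points of control 1 lie lowest for every gene; right, those of control 2 do so for all 10 genes.

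Partners of these enzymes were read from 4 lists, and 0 of their genes passed in the edgeR fit. Of 25 tested electron donors and cofactor genes, 16 lay higher and 9 lower, where 51.6% of tested genes were higher. An unadjusted p under 0.05 by edgeR was found for 1 of the 25 (background 5.58%). That was PGD, which makes NADPH in the pentose phosphate pathway, at 238 and 288 CPM in the exposed libraries and 184 and 193 CPM in the controls (log2 fold change 0.48, SE 0.18; adjusted p = 0.869 by edgeR). POR, the reductase that feeds electrons to microsomal P450s, stood at 105 and 99.6 CPM against 111 and 81.0 CPM. UGP2, which makes UDP-glucose, stood at 536 and 566 CPM against 180 and 429 CPM, and had a log2 fold change of 0.86 (SE 0.44) that was 0.37 without control library 1.

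Of 20 tested receptors and regulators, 10 were higher and 10 lower, with a median of 0.00087. The aryl hydrocarbon receptor AHR stood at 148 and 153 CPM against 172 and 138 CPM, and NFE2L2, the regulator of antioxidant enzymes, at 255 and 261 against 229 and 219 CPM. PPARA, a fatty acid receptor, had the smallest p of this list, at 100.1 and 94.0 CPM against 48.2 and 68.0 CPM (log2 fold change 0.74, SE 0.22; adjusted p = 0.819 by edgeR). PPARG stood at 80.0 and 64.9 CPM against 44.1 and 60.7 CPM.

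Of 21 tested genes of retinoid binding and conversion, 13 were higher and 8 lower, where 51.6% of tested genes were higher. RDH10, which oxidises retinol to the retinal that ALDH1A enzymes use, stood at 84.4 and 81.9 CPM in the exposed libraries and at 43.4 and 43.6 CPM in the controls. The replicates were within a few percent of each other and the groups lay far apart, with a log2 fold change of 0.94 (SE 0.14). It was called by DESeq2 (adjusted p = 0.0145) and not by edgeR (adjusted p = 0.571, the smallest in the table, shared with other genes), and its fold change was 0.92 to 0.96 when any single library was left out.

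Of 39 tested other conjugation enzymes, oxidases and efflux pumps, 30 lay higher and 9 lower, 11 of the 30 without overlap, where 51.6% of tested genes were higher and 15.3% were so without overlap. Their median log2 fold change was 0.12. AOX1, aldehyde oxidase, stood at 124 and 133 CPM against 83.2 and 91.7 CPM (log2 fold change 0.56, SE 0.15; adjusted p = 0.762 by edgeR). XDH, xanthine dehydrogenase, stood at 133 and 132 CPM against 274 and 173 CPM (-0.75, SE 0.26, edgeR adjusted p = 0.843), and had -0.38 without control library 1.

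Around the level set by the rule, means are in CPM of the library total, without TMM scaling. The members just inside were CYP26C1, ALDH1A2 and FMO4, at a mean of 1.11, 1.19 and 1.23 CPM. Just outside lay CYP1C1, CYP2J2L4 and EPHX4, at 0.707, 0.909 and 0.993 CPM. Of the 24 rows outside, CYP2J6L1, CYP2J2L6 and CYP21A2 had no read in any library.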

How the data were processed

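The authors deposited 1 table of read counts per gene for 4 trachea libraries, with no normalization. The aligner HISAT2 is named in the submitters' processing notes; a build, an annotation, a counting tool, strandedness and tool versions were not given in the sources used here. Paralogs and overlapping genes are therefore uncertain. Counts were filtered with filterByExpr, scaled by TMM and compared in edgeR 4.0.16 by its quasi-likelihood test (legacy = FALSE, two-sided, no covariate, 2 residual degrees of freedom) in R 4.3.3, with Benjamini-Hochberg adjustment over 16545 genes. All 60 members passed the filter. The level rule and the means around its limit used CPM of the library total. Other printed levels are TMM-scaled. The standard error is the absolute log2 fold change over the square root of F. With 2 libraries against 2, an exact permutation test cannot go below p = 0.333. DESeq2 1.42.0 and limma 3.58.1 were alternatives. The test was also run on simulated counts that lacked each gene's own spread, so that run does not show what it could detect in these libraries. Chi-square per degree of freedom between libraries was 64.7 to 112, so none is a copy.

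The members, gene lists and tests were chosen with earlier results of these data known. Named genes are the 10 members of smallest p, in each family the 2 of highest CPM and the 1 of largest change, those over 4-fold apart within a group, those at the level limit, and the 2 genes of smallest p from each partner list; the others were chosen after their values were seen. Names and neighbours come from a RefSeq table of GRCg7b, which gave 76 of the 84 rows a single name by symbol or synonym. The rows CYP1A1 and CYP1A4 were given the same name. No coordinates are given. The values of 2 genes named by the rule are not reported here; they stay in the fits and counts.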

Additional observations from a re-analysis of the deposited data

How the results depend on the processing

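No member was called under any alternative run (DESeq2, limma-voom, the legacy dispersion method, library totals, DESeq2 size factors, no filter, the replicate block, and each library left out). Over all tested genes DESeq2 called 132 and the other alternatives 0. A level limit of 0.5 or 5 CPM gave 67 or 50 members in place of 60. Members with an unadjusted p under 0.05 numbered 1 with library totals, 0 with limma-voom, 0 among members over 5 CPM, and 2 to 9 with a library left out, where the lone library of a group is taken to vary like the other group. The share of all tested genes with such a p is not given for these runs. Their counts therefore cannot be set against a background, and no effect on the members is read from them. The median log2 fold change of the members was 0.060 with library totals, where that of all tested genes was -0.071. It was 0.023 to 0.289 with a library left out, when 19 to 28 members were lower. Over all tested genes, same-numbered libraries did not deviate together (correlation of deviations -0.002). A correlation pooled over all genes cannot settle whether the numbers pair libraries, since opposite deviations of different genes cancel. With the replicate block 0 genes and 0 members were called. Over all members, 34 were higher with library totals and 46 with limma-voom, so other members turned too. Among the genes named by the rule, direction turned with library totals for AKR1B10 (-0.056) and UGT8 (-0.0031), with limma-voom for FMO4 (0.10) and SULT1C3 (0.056), and with the replicate block for SULT1C3 (0.066). With a library left out, log2 fold changes ran from -0.18 to 0.34 for ADH5, -0.019 to 1.11 for AKR1B1, -0.23 to 0.34 for AKR1B10, -0.29 to 1.23 for ALDH1A1, -0.53 to 2.87 for ALDH1A2, -0.20 to 2.02 for CYP1B1, -0.36 to 0.78 for CYP26C1, -0.99 to 0.059 for CYP2C21L, -2.26 to 0.25 for CYP2C45 and -2.68 to 0.047 for CYP2W1. They ran from -0.44 to 0.021 for EPHX1, -1.42 to 2.04 for FMO4, -0.64 to 0.86 for SULT1C3, -0.12 to 0.35 for UGT2A1 and -0.32 to 0.66 for UGT8. The cause was not tested. A scale per coding length was not run, since no lengths were used here. Low counts limit CYP2H1, FMO4, ALDH1A2 and CYP26C1.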
